A study of Mus musculus with 16 samples.

Results

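The inflammasome and pyroptosis genes Nlrp3, Nlrc4, Aim2, Pycard, Casp1, Casp4, Gsdmd and Il18 were examined in CD11b+ myeloid cells sorted from mouse tumours. These 8 genes were taken by symbol from the 24421 genes of the count tables, and all 8 were among the 9642 genes with enough reads for a test. Subcutaneous MC38-Ova tumours, a murine colon adenocarcinoma line that expresses ovalbumin, were grown in female Kaede transgenic mice on the C57BL/6 background, which express the photoconvertible protein Kaede. Violet light turned the host cells inside the tumour from green to red, so that Kaede-green cells had entered the tumour since labelling and Kaede-red cells had been present when it was labelled. The groups were Kaede-green and Kaede-red cells taken 24h after photoconversion and Kaede-green and Kaede-red cells taken 72h after it, with 4 libraries each and 16 in all. All 4 groups carried the same tumour line and transgene, had the treatment label Control (NA) and shared 1 batch label. The gate kept live CD45+ cells that were positive for Kaede and CD11b and negative for TER119 and NK1.1, so each library was a mixture of the CD11b+ cell types of its tumour.

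Inflammasomes are protein platforms that form in the cytosol of myeloid cells on contact with microbial products or cell damage. A sensor (NLRP3, NLRC4 or AIM2) activates caspase-1, and NLRP3 and AIM2 do so through the adaptor ASC, the product of Pycard. Caspase-1 matures IL-18 and IL-1β and cuts gasdermin D. The freed part of gasdermin D forms pores in the plasma membrane that release the cytokines and can end in pyroptosis, and caspase-11, encoded by Casp4 in the mouse, opens the same pore on binding cytosolic lipopolysaccharide. Activation of these proteins is a separate step after transcription, and transcripts alone were measured here.

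In the mm10 mouse genome (GENCODE M21), Casp1 (chromosome 9, 5298517 to 5307265) and Casp4 (chromosome 9, 5308828 to 5336783) are neighbours on the plus strand with 1562 bp between them, and Il18 lies on the same chromosome (50554827 to 50581840, plus strand). Nlrp3 lies on chromosome 11 (59541568 to 59566956, plus strand), Nlrc4 on chromosome 17 (74425438 to 74459142, minus strand), Aim2 on chromosome 1 (173350879 to 173466040, plus strand), Pycard on chromosome 7 (127989708 to 127993867, minus strand) and Gsdmd on chromosome 15 (75862327 to 75867408, plus strand). The exons of Pycard overlap those of Gm45205, a gene model on the other strand, and reads of the 2 could not be told apart if the counting ignored strand, a setting not given in the sources used here.

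Start-site sequences from RefSeq (GRCm38.p6, 250 bases before to 50 after each start) were found for 7 of the 8 genes, the exception being Gsdmd. They were searched on both strands for 4 motifs of factors that act on myeloid genes, chosen with the expression results known. The NF-kappaB consensus was matched in the windows of Nlrp3 and Casp4 and stood in 8.46% of all 32851 windows. The PU.1 motif GAGGAAGT was matched in those of Aim2 and Pycard and stood in 3.2% of all windows. The interferon-stimulated response element GAAANNGAAA (3.44% of all windows) and the gamma-activated site TTCNNNGAA (8.3%) were matched in none of the 7 genes. The 4 upstream stretches with a match are shown, and their capitals mark the matched letters, which in Casp4 include 2 overlapping matches and 1 separate match. The regions, read 5′ to 3′ on the strand of the gene and ending before its annotated first base or RefSeq start, are chr11:59541319-59541567 for Nlrp3, chr9:5308599-5308827 for Casp4, chr1:173420354-173420603 for Aim2, which lies inside the annotated span of that gene, and chr7:127993868-127994117 (minus strand) for Pycard.
Nlrp3: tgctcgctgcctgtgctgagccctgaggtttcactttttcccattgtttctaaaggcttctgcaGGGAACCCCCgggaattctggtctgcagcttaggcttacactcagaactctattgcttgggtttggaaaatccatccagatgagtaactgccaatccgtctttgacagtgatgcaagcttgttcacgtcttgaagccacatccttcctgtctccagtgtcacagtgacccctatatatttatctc
Casp4: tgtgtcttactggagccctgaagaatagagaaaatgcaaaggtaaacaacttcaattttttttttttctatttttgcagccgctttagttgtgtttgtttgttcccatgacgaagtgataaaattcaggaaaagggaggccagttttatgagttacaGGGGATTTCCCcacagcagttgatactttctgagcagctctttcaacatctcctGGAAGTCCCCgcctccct
Aim2: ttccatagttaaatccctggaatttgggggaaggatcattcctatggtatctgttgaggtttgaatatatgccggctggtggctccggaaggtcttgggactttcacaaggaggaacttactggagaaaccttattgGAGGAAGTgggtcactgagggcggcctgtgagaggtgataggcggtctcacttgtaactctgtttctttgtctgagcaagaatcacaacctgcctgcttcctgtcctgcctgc
Pycard: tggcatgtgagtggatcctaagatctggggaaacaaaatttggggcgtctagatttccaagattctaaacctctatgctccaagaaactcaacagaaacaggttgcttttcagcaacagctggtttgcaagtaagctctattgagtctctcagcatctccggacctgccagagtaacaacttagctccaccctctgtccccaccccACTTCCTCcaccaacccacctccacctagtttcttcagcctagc
A match describes letters in these windows and is no evidence that a factor binds there, and the 3 genes without a match were Nlrc4, which was not called, and Casp1 and Il18, which had the largest falls of the 8.

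To ask how these genes change with dwell time in the tumour, Kaede-red and Kaede-green cells were compared at each time and over both times together, and each colour was compared between the times. Counts were tested with the quasi-likelihood test of edgeR, p-values were adjusted by Benjamini-Hochberg over all 9642 genes, and a gene was called at an adjusted p under 0.05. Levels are given as CPM, the reads of a gene scaled to 1 common library total, after TMM scaling. In its plot of these libraries the study describes the points as tumours of independent mice. Whether a Kaede-green and a Kaede-red library share a tumour is not stated. The p-values measure the spread between libraries of the same group, estimated over the 4 groups together.

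Over both times, 6 of the 8 genes were lower in Kaede-red cells, namely Il18, Casp1, Aim2, Casp4, Nlrp3 and Pycard, and none was higher. Of all genes tested, 10.3% were lower by the same rule, and 20.3% were called in either direction. These directions are those after TMM scaling: with library size as the only scaling the 6 estimates turned to between 0.75 and 1.55, below a median of all genes that moved to 2.204, and 9318 genes were called higher and 10 lower, against 990 lower of 1959 called with TMM. Il18 fell 2.61-fold and Casp1 fell 2.23-fold, while the other 4 fell between 1.49-fold and 1.60-fold. The median log2 fold change of the 8 genes was -0.64, against 0.06 over all genes tested. The 2 genes that were not called, Nlrc4 and Gsdmd, had estimates above 0. In a bulk sample, fewer cells that express a gene and less of its RNA per cell cannot be told apart.

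**Figure D1:**
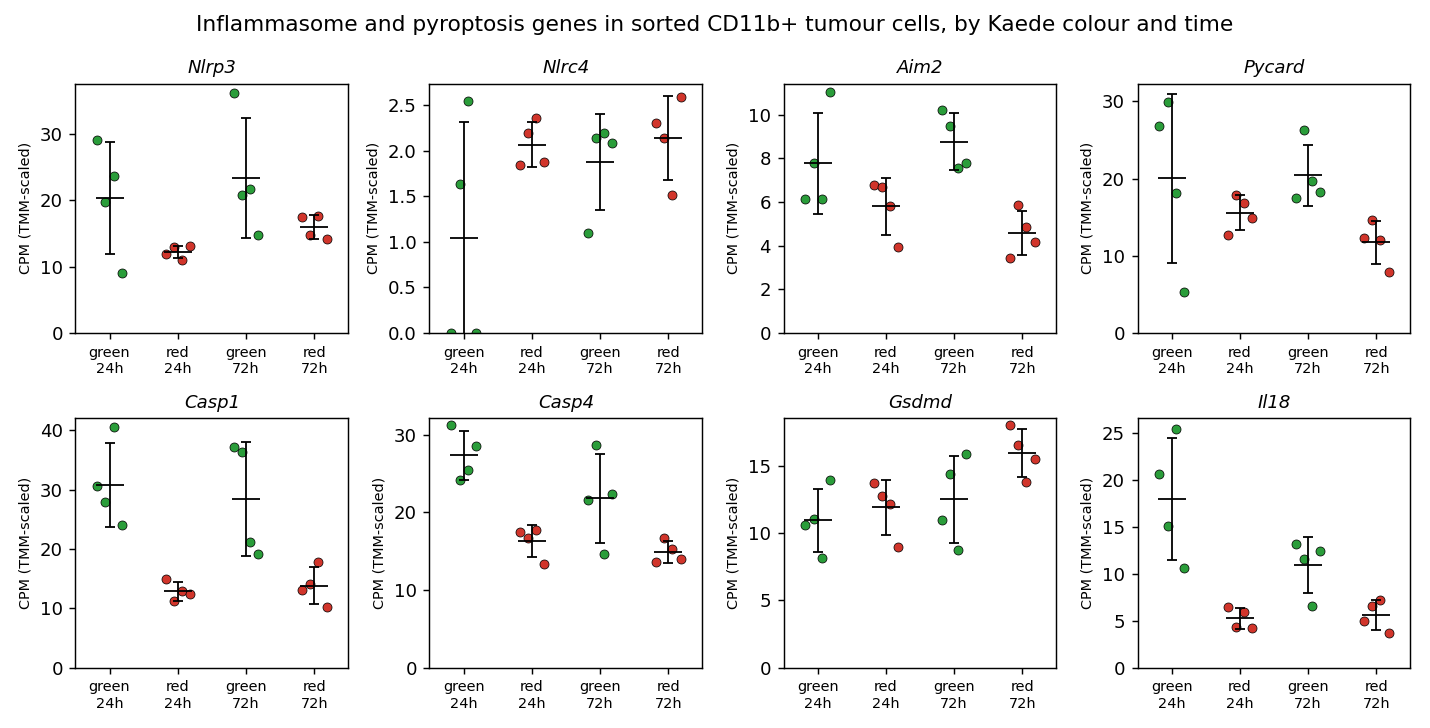
CPM after TMM scaling (vertical axis, linear from 0) of each of the 8 genes in the 16 libraries, with 1 panel per gene and the groups Kaede-green and Kaede-red at 24h and 72h on the horizontal axis. Points are libraries and bars are the group mean and SD (n = 4), cut at 0 for Nlrc4; the 8 Kaede-red libraries of Casp1 all lie below its 8 Kaede-green libraries.

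Among the sensors, Nlrp3, which responds to ion fluxes and membrane damage, was measured in Kaede-green cells at 29.0, 19.7, 23.7 and 8.997 CPM at 24h and at 36.2, 20.8, 21.6 and 14.8 CPM at 72h. In Kaede-red cells it stood at 11.9, 12.9, 11.1 and 13.1 CPM at 24h and at 17.5, 14.7, 17.5 and 14.1 CPM at 72h. The Kaede-green libraries were widely spread and the Kaede-red libraries close together, and the fourth Kaede-green library at 24h, the lowest of all 16, lay below every Kaede-red library. The log2 fold change was -0.63 (SE 0.18, adjusted p = 0.0125) over both times. It was -0.72 (SE 0.26, adjusted p = 0.0968) at 24h and -0.54 (SE 0.25, adjusted p = 0.141) at 72h, so that neither time passed the test alone. Without the fourth Kaede-green library at 24h the value at that time was -0.98 and passed it (adjusted p = 0.00863).

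Aim2, the sensor of cytosolic double-stranded DNA, was at 6.13, 7.78, 6.12 and 11.04 CPM in Kaede-green cells at 24h and at 6.76, 6.69, 5.81 and 3.94 CPM in the Kaede-red libraries. At 72h the Kaede-green libraries had 10.2, 9.46, 7.54 and 7.80 CPM and the Kaede-red libraries 3.44, 5.85, 4.84 and 4.19 CPM. The colours overlapped at 24h, and at 72h every Kaede-red library lay below every Kaede-green library, an order that 9.52% of all genes tested also showed. Aim2 was lower in Kaede-red cells by a log2 fold change of -0.68 over both times (SE 0.20, adjusted p = 0.0139) and of -0.93 at 72h (SE 0.27, adjusted p = 0.0156). The 24h value of -0.43 (SE 0.29, adjusted p = 0.433) did not pass. The 72h call was lost without the first Kaede-red library at 72h (-0.81, adjusted p = 0.0709).

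Nlrc4, which is assembled by NAIP proteins that bind bacterial flagellin and secretion system parts, was close to the limit of detection. It had 0, 4, 10 and 0 reads in the Kaede-green libraries at 24h and 3, 7, 9 and 8 at 72h, against 13 to 29 in Kaede-red cells at 24h and 10 to 123 at 72h. As CPM these were 0 to 2.55 and 1.10 to 2.19 in Kaede-green cells and 1.84 to 2.36 and 1.51 to 2.59 in Kaede-red cells, and the groups overlapped. A count of 0 allows up to 1.67 CPM in the first and 1.23 CPM in the fourth Kaede-green library at 24h (3 counts, counting error only). The estimate was 0.46 over both times (95% confidence interval -0.33 to 1.25, adjusted p = 0.443).

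The adaptor gene Pycard was at 26.8, 29.9, 18.1 and 5.32 CPM in Kaede-green cells at 24h and at 12.7, 17.9, 16.9 and 14.9 CPM in the Kaede-red libraries. At 72h it was at 17.5, 26.3, 19.7 and 18.2 CPM in the Kaede-green and at 12.3, 14.7, 12.1 and 7.96 CPM in the Kaede-red libraries. The fourth Kaede-green library at 24h, which also had the lowest Nlrp3, was the lowest of all 16. At 72h every Kaede-red library lay below every Kaede-green library, as for 9.52% of all genes tested. Pycard was lower over both times by a log2 fold change of -0.57 (SE 0.20, adjusted p = 0.0444), the weakest of the 6 calls. It was kept in 5 of the 16 fits that left out 1 library each, with adjusted p from 0.000869 without the fourth Kaede-green library at 24h to 0.128 without the second. It was not called at either time alone, with -0.35 at 24h (adjusted p = 0.550) and -0.80 (adjusted p = 0.0501) at 72h.

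Of the caspases, Casp1 separated the colours completely. Its Kaede-green libraries had 30.7, 27.9, 40.5 and 24.1 CPM at 24h and 37.3, 36.3, 21.2 and 19.2 CPM at 72h. The Kaede-red libraries had 15.0, 11.2, 12.9 and 12.5 CPM at 24h and 13.2, 14.1, 17.8 and 10.3 CPM at 72h. The highest Kaede-red library, the third at 72h, lay below the lowest Kaede-green library, the fourth at 72h, and 1.74% of all genes tested had all 8 Kaede-red libraries below all 8 Kaede-green libraries. The log2 fold change was -1.16 over both times (SE 0.17, adjusted p = 3.67e-06), -1.26 at 24h (SE 0.24, adjusted p = 0.000681) and -1.05 at 72h (SE 0.23, adjusted p = 0.00150). All 3 calls were kept when any of the 16 libraries was left out, with values over both times from -1.23 to -1.08.

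Casp4, the sensor caspase of lipopolysaccharide, was at 31.2, 24.2, 25.5 and 28.6 CPM in Kaede-green cells at 24h and at 17.5, 16.7, 17.8 and 13.3 CPM in Kaede-red cells, with no overlap. At 72h the Kaede-green libraries had 21.6, 28.7, 14.6 and 22.4 CPM and the Kaede-red libraries 13.6, 16.7, 15.3 and 14.0 CPM, and the third Kaede-green library lay within the Kaede-red range. The log2 fold change was -0.65 over both times (SE 0.15, adjusted p = 0.00150) and -0.75 at 24h (SE 0.21, adjusted p = 0.0231). At 72h it was -0.54 (SE 0.20, adjusted p = 0.0645) and did not pass, whereas without the third Kaede-green library it was -0.72 and did (adjusted p = 0.0201). The call of Casp4 at 24h was not kept without the first Kaede-green (adjusted p = 0.0649), the second Kaede-red (0.0580) or the fourth Kaede-red library of that time (0.0870).

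Gsdmd, the gene of the pore former, was not called in any comparison. It was at 10.6, 11.1, 8.15 and 13.9 CPM in Kaede-green cells at 24h and at 13.7, 12.8, 12.2 and 8.98 CPM in the Kaede-red libraries. At 72h the values were 10.97, 14.3, 8.76 and 15.9 CPM in the Kaede-green and 18.01, 16.5, 13.8 and 15.5 CPM in the Kaede-red libraries. The colours overlapped at both times, and the log2 fold change over both times was 0.25 (95% confidence interval -0.09 to 0.58, adjusted p = 0.318), an interval that excludes a fall of the size seen for Casp1 (-1.16).

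The cytokine gene Il18 had the largest fold change of the 8 over both times. Its Kaede-green libraries had 20.6, 15.2, 25.5 and 10.6 CPM at 24h and 13.2, 11.6, 6.57 and 12.5 CPM at 72h. The Kaede-red libraries had 6.50, 4.38, 5.99 and 4.26 CPM at 24h and 4.93, 6.61, 7.26 and 3.73 CPM at 72h. All Kaede-red libraries lay below all Kaede-green libraries at 24h, as for Casp1 and Casp4 (5.43% of all genes tested), and at 72h the third Kaede-green library fell among the Kaede-red ones. Il18 was lower in Kaede-red cells by a log2 fold change of -1.38 over both times (SE 0.20, adjusted p = 4.92e-06), of -1.79 at 24h (SE 0.29, 3.45-fold, adjusted p = 0.000108) and of -0.98 at 72h (SE 0.28, 1.97-fold, adjusted p = 0.0145). The 72h call was lost without the first (adjusted p = 0.0509) or the fourth Kaede-red library at 72h (adjusted p = 0.0674).

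**Figure D2:**
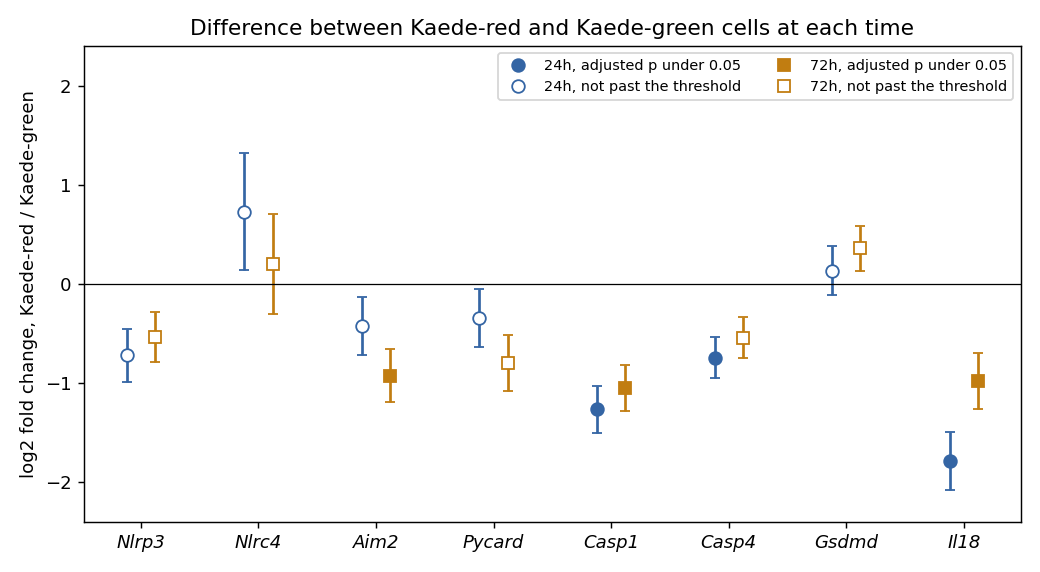
Log2 fold change between the colours (vertical axis, below 0 where Kaede-red is lower) for each of the 8 genes (horizontal axis), with circles for 24h and squares for 72h, filled where the adjusted p was under 0.05; points are edgeR estimates after TMM scaling (directions turn with library size only) and bars are ± 1 SE. Il18 (-1.79 and -0.98) and Casp1 (-1.26 and -1.05) are filled at both times, and Nlrc4 and Gsdmd lie above 0 with open symbols.

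By time, 3 of the 8 genes were lower in Kaede-red cells at 24h (Casp1, Casp4 and Il18), where 4.28% of all genes tested were lower. At 72h 3 of the 8 were lower (Aim2, Casp1 and Il18), where 8.76% of all genes were lower. Casp1 and Il18 were called at both times. That Casp4 was called at 24h alone and Aim2 at 72h alone does not show that the times differed: the change of the colour difference with time was called for none of the 8 genes by edgeR (0 of 8 at an unadjusted p under 0.05) or, of the 7 it tested, by DESeq2, and for 0.757% of all genes. The value nearest the threshold was that of Il18, whose fall was smaller at 72h by 0.81 on the log2 scale (SE 0.40, unadjusted p = 0.0516, adjusted p = 0.332).

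Levels were divided by the joined length of all annotated exons of a gene, which for Pycard was 3800 bp of a span of 4160 bp. The length of the transcripts present was not measured, so the order of the genes holds for this measure only. By it, the mean level in Kaede-green cells was 19.8 CPM per kb for Casp1 and 14.0 for Il18. Next came Casp4 at 6.63, Nlrp3 at 5.39, Pycard at 5.32, Gsdmd at 4.92, Aim2 at 2.36 and Nlrc4 at 0.304. In Kaede-red cells the order began with Casp1 at 8.93 CPM per kb, and Gsdmd at 5.85 came before Il18 at 5.29. Casp4 (4.21), Pycard (3.60), Nlrp3 (3.47), Aim2 (1.48) and Nlrc4 (0.437) followed. The SDs over the 8 libraries of a colour were 5.27 for Casp1 and 5.81 for Il18 in Kaede-green cells and 1.57 and 1.26 in Kaede-red cells. In both colours the ranges of each gene and the next in this order overlapped from Casp1 down to the sixth gene, and Nlrc4 lay below all others. Aim2 lay apart from the genes above it in Kaede-red cells, whereas in Kaede-green cells its range (1.75 to 3.15) overlapped those of Pycard and Nlrp3, which reached down to 1.40 and 2.22.

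**Figure D3:**
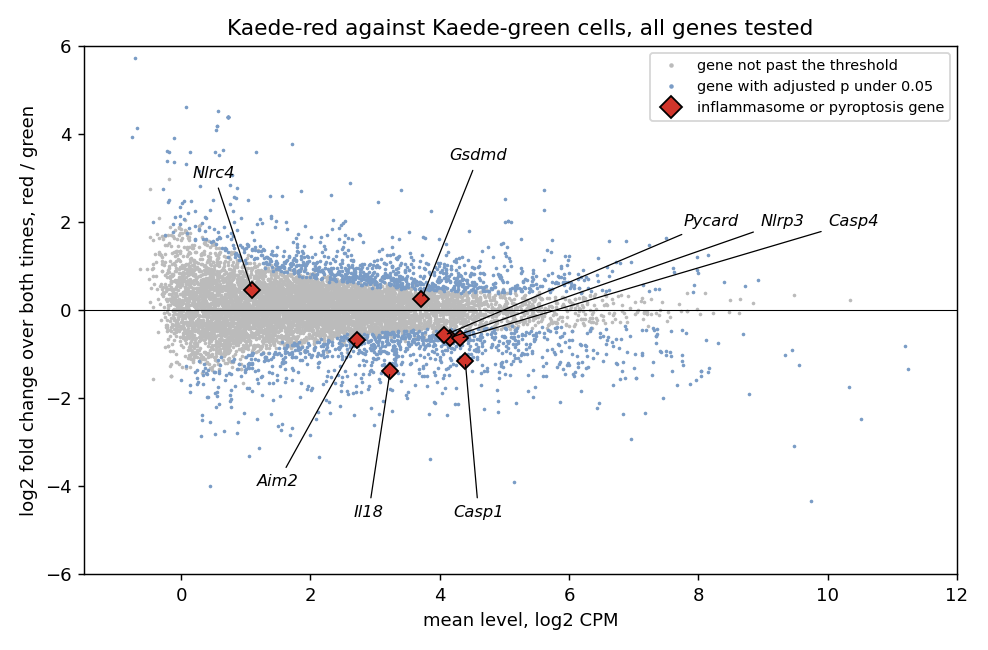
Log2 fold change between the colours with both times together after TMM scaling (vertical axis, below 0 where Kaede-red is lower) against the mean level in log2 CPM (horizontal axis) for the 9642 genes tested, with the 8 inflammasome and pyroptosis genes as labelled diamonds and other genes with an adjusted p under 0.05 in blue; 5 genes lie outside the axes. The 6 genes that were called lie below the line at 0, among other called genes of like level, and Nlrc4 at the lower end of expression.

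Within one colour, the level of the 8 genes was not called different between the times. In Kaede-green cells none of them, and none of the 9642 genes (0%), passed edgeR's test. Unadjusted p was under 0.05 for 1 of the 8 and for 835 genes in all, and DESeq2 called none of the 7 it tested and 3 higher and 11 lower genes in all. The 1 gene was Il18, with a mean of 17.98 ± 6.46 CPM at 24h and 10.95 ± 2.99 CPM at 72h (SD, n = 4) and a log2 fold change of -0.74 (SE 0.29, adjusted p = 0.463). In Kaede-red cells 8.68% of all genes were called and none of the 8 (0 at an unadjusted p under 0.05, and none by DESeq2). Gsdmd went from 11.9 ± 2.05 to 15.9 ± 1.78 CPM (log2 fold change 0.43, SE 0.21, adjusted p = 0.219) and Nlrp3 from 12.2 ± 0.931 to 15.97 ± 1.81 CPM (0.38, SE 0.25, adjusted p = 0.387). For these 2 genes all 4 libraries at 72h lay above all 4 at 24h, an order that 11.8% of all genes showed.

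The levels of Casp1 and Il18 ran together over the 16 libraries (Pearson r = 0.911 of log2 CPM), as did those of Casp4 with Il18 (r = 0.866) and with Casp1 (r = 0.801). Gsdmd had r between -0.43 and 0.07 with the other 7 genes. Such values include the difference between the colours and the depth that goes with it, and the libraries of a group share both. Among genes with a mean log2 CPM of at least 4, those most like Casp1 were Sub1 (r = 0.945), Btg1 (0.932) and Lyz1 (0.926), of 1390 candidates, and those most like Il18 were Lyz1 (0.918), Casp1 (0.911) and Cd69 (0.906). Casp4 was most like 9930111J21Rik2 (0.910), Rpl21 (0.893) and Psma7 (0.886), and Pycard most like Btf3 (0.939), LOC100038947 (0.901) and Ptpn18 (0.881). The closest genes were looser for Gsdmd (Cfb, 0.844, Cyth4, 0.816, and Sema4d, 0.786), Nlrp3 (Slc39a1, 0.834, Xbp1, 0.831, and Arhgdib, 0.761), Aim2 (Rpl37rt, 0.794, Snx10, 0.786, and Rap2c, 0.775) and Nlrc4 (Mfsd1, 0.793, Tgfbr1, 0.785, and Ptms, 0.760).

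Other genes of the pathway were called in both directions by the main fit, after TMM scaling. Beside the counts of this list and those below, that fit called 20.3% of all genes tested over both times, with 10.3% lower. Whether the calls of pathway genes hold in the alternative fits was not tested gene by gene. When the share of counts from Rn45s, the precursor of ribosomal RNA, entered the fit, 51 genes were higher and 105 lower of all 9642. Of 20 further sensors and activators, 18 were tested, and over both times 4 were higher in Kaede-red cells and 2 were lower (median log2 fold change 0.09). P2rx7, the ATP receptor whose opening triggers NLRP3, was higher by 1.00 (SE 0.19, adjusted p = 0.000209), and Txnip, a partner of NLRP3 in oxidative stress, was higher by 0.75 (SE 0.13, adjusted p = 4.85e-05). Kaede-green cells had 3.66 to 9.83 CPM of P2rx7 and Kaede-red cells 8.32 to 15.4 CPM. By time, P2rx7 was called at 72h (1.26, adjusted p = 0.000995) and not at 24h (0.74, adjusted p = 0.0972). The DNA sensor Ifi204 was higher by 0.41 (adjusted p = 0.0420).

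The Naip genes, whose products bind bacterial ligands and assemble NLRC4, were split. Naip2 was higher in Kaede-red cells (0.62, adjusted p = 0.0169), and Naip5 (-0.64, adjusted p = 0.0131) and Naip6 (-0.55, adjusted p = 0.0235) were lower. These genes are paralogs, and the share of reads that match more than 1 of them was not measured, so the 3 calls are uncertain as far as the counting could split such reads.

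Of 10 other caspases and genes of membrane pores or rupture, all tested, 2 were higher over both times and 1 was lower. The higher genes were Ripk1 (0.72, adjusted p = 0.00270) and Ripk3 (0.89, adjusted p = 0.0114), the kinases of necroptosis.

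In the IL-1 family and its receptors, 11 of 15 genes were tested, with 1 higher and 3 lower. Il1b, the other main substrate of caspase-1, was lower in Kaede-red cells (log2 fold change -0.93, SE 0.13, adjusted p = 3.68e-06), with means in Kaede-green and Kaede-red cells of 257 ± 34.7 and 131 ± 6.83 CPM at 24h and of 191 ± 32.4 and 104 ± 14.8 CPM at 72h (SD, n = 4). As for Casp1, its 8 Kaede-red libraries all lay below its 8 Kaede-green libraries. Il18bp, the secreted protein that binds and blocks IL-18, moved opposite to Il18 and was higher by 0.82 (SE 0.22, adjusted p = 0.00735). At 72h Il18bp stood at 2.19, 3.05, 4.62 and 4.94 CPM in Kaede-green cells and at 10.1, 9.83, 5.90 and 12.1 CPM in Kaede-red cells (log2 fold change 1.34, adjusted p = 0.00239). At 24h its colours overlapped and no call was made. The decoy receptor Il1r2 (-0.60, adjusted p = 0.0236) and the IL-33 receptor Il1rl1 (-0.72, adjusted p = 0.0495) were lower. Il1b and Il18bp each overlap a gene on the other strand, Il1bos and Numa1, and the limit given for Pycard holds for them too.

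Of 10 genes that restrain inflammasomes, 7 were tested, and Sirt2, a deacetylase that acts on NLRP3, was the 1 called over both times (1.00 higher, adjusted p = 0.00618). By time, Sirt2 was called at 72h (1.79, adjusted p = 0.000911) and not at 24h (0.22, adjusted p = 0.796). Its Kaede-green libraries had 2 to 16 reads at 24h and 5 to 7 at 72h. At 72h Card6 was also higher (1.77, adjusted p = 0.0415), on 1 to 5 reads in Kaede-green cells. The medians of the other lists were -0.06 for the caspases and pore genes, -0.09 for the IL-1 family, 0.12 for the restraining genes and 0.25 for 6 transcription factors that control pathway genes. Of these factors, none was called over both times by edgeR (2 at an unadjusted p under 0.05). At 72h Nfkb1 (0.70, adjusted p = 0.0256) and Rela (0.75, adjusted p = 0.0415) were higher in Kaede-red cells, where Casp1, Il18 and Aim2 were lower.

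**Figure D4:**
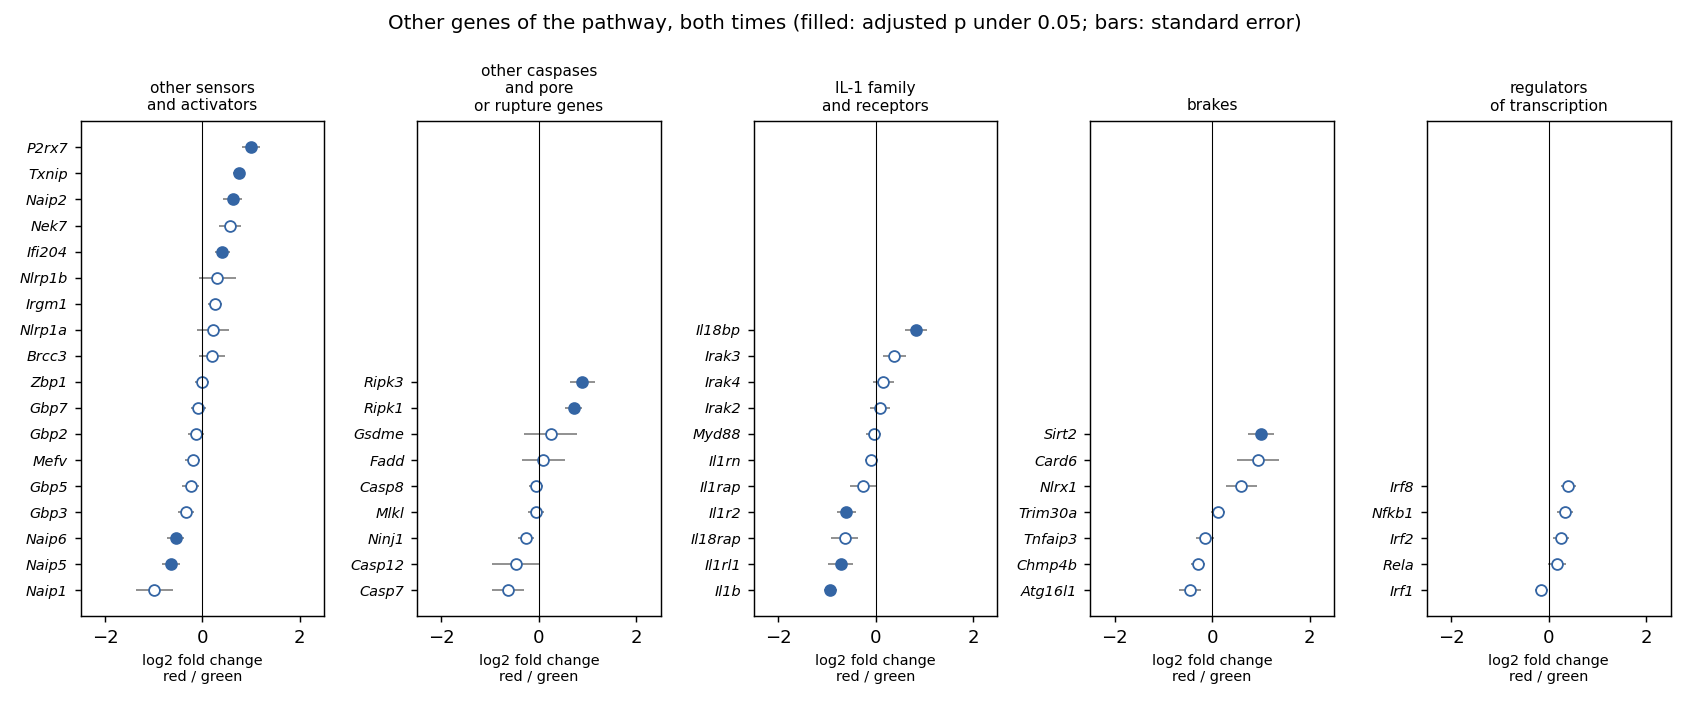
Log2 fold change between the colours with both times together after TMM scaling (horizontal axis, below 0 where Kaede-red is lower) for tested genes of 5 further lists of the pathway, 1 panel per list with a line per gene. Filled points have an adjusted p under 0.05 in the main fit and bars are ± 1 SE. Filled points stand on both sides of 0, with P2rx7 (1.00) and Sirt2 (1.00) highest and Il1b (-0.93) lowest.

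Depth and RNA composition moved with colour. Rn45s, the precursor of ribosomal RNA, took a mean of 88.6% of the counts in Kaede-green and 71.1% in Kaede-red libraries (two-sided exact permutation test within times, p = 0.000408, the smallest of 4900 relabellings), and the counts outside it ran from 468092 to 912689 and from 758192 to 5472480. When the Rn45s share entered the fit as a covariate, the 6 genes stayed below 0 over both times, with Il18 at -1.26 (adjusted p = 0.0677), Aim2 at -0.88 (0.308), Casp1 at -0.79 (0.208), Casp4 at -0.66 (0.266), Nlrp3 at -0.42 (0.719) and Pycard at -0.42 (0.777), and none was called. Of all 9642 genes, 51 were called higher and 105 lower in that fit. Colour and Rn45s share ran together in these libraries and cannot be told apart well. With Kaede-red libraries thinned to the depth of Kaede-green libraries, the same 6 genes were called, with Casp1 at -1.21 and Il18 at -1.36. Of the 8418 genes tested there, 768 were higher and 910 lower.

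The cells were checked against markers of the types that the sort could hold. All 10 macrophage and monocyte markers were tested, and their summed level at 24h was 1085 to 2519 CPM in Kaede-green and 811 to 1327 CPM in Kaede-red libraries, and at 72h 1309 to 1762 and 1351.6 to 1726 CPM. Over both times 6 of them were higher in Kaede-red cells and Lyz2 was lower. Of 6 fibroblast markers, 4 were tested and 3 were lower in Kaede-red cells, as the 6 inflammasome genes were, and the summed level at 24h and 72h was 40.3 to 52.3 and 45.5 to 49.9 CPM in Kaede-green cells against 19.9 to 37.4 and 12.05 to 19.2 CPM in Kaede-red cells. Of 10 neutrophil markers, Ngp was at 0 in all libraries and 2 were tested, of which Csf3r, the receptor of granulocyte colony-stimulating factor, had reads in all 16 libraries and was higher in Kaede-red cells (0.67, adjusted p = 0.00566, with a mean level of 7.25 CPM in the Kaede-green libraries against 12.2 CPM). The sum of the neutrophil markers was 9.42 to 14.7 CPM in 3 groups and 18.8 to 23.9 CPM in the Kaede-red libraries at 72h. Csf3r had the highest mean of these markers in either colour and so weighs most in this sum. S100a8 and S100a9 were not tested and had lower Kaede-red means. With the Kaede-red mean second, they stood at 0.790 and 0.248 CPM (at most 12 reads) and 0.628 and 0.389 CPM (at most 21 reads). Cxcr2 was slightly lower too, whereas Mmp8, Mmp9, Retnlg, Camp and Ltf had higher Kaede-red means. Neutrophil content itself was not tested. Of 3 endothelial markers tested 2 were higher and 1 was lower, and of 3 dendritic cell markers 1 was higher. Cd4 was the 1 T and NK cell marker tested and was higher, at means of 0.149 (Kaede-green) and 0.763 CPM (Kaede-red). Untested markers of that list went both ways. In the same order, Cd3g had 0.490 and 0.101 CPM and Cd8a 0.616 and 0.212 CPM. Ncr1 was lower too, and Cd3d, Cd3e, Klrb1c and Gzma were higher. Summed over the list, the ranges of the colours overlapped at both times. The 1 B cell and the 1 erythroid marker tested were not called, and none of 6 epithelial markers had enough reads. The part of these cells in the values of the 8 genes was not tested.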

How the data were processed

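RNA of sorted CD11b+ cells was sequenced in 16 libraries made with a stranded total RNA kit. The authors trimmed reads with Trim Galore, checked them with FastQC, used HISAT2 for alignment to mm10 and featureCounts for counts per gene; versions, gene annotation and strand setting are not given in the sources used here. The deposited values are raw counts of reads for 24421 genes named by symbol, and the single tables and the combined table held identical values. Total counts were 3216860 to 15423100 per library, of which Rn45s took 55.8% to 93.4%, so that the depth for all other genes was lower (468092 to 5472480) and limits low genes such as Nlrc4. No library copied another (chi-square per gene 3.37 to 105 over 24 pairs within groups).

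Counts were analysed with edgeR 4.0.16 in R 4.3.3 (limma 3.58.1): genes kept by filterByExpr at its defaults (9642), TMM scaling, 1 mean per group in a single fit of all libraries, quasi-likelihood tests and Benjamini-Hochberg adjustment over all genes tested. The common dispersion was 0.0702, and the median SE of a log2 fold change was 0.39 at 24h, 0.36 at 72h and 0.27 for both times together. Log2 CPM used a prior count of 2, and confidence intervals cover 95%. The scripts were tested on simulated counts. Alternatives were DESeq2 1.42.0, RLE factors, library size only, no filter, at least 10 counts in every library, replicate blocks, fits without Rn45s, thinned Kaede-red libraries, the Rn45s share as a covariate, fits of only the groups compared and fits leaving out each library.

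The 8 genes and all lists and motifs were chosen with earlier results of these data known. All 8 genes are named with their values, and of each further list at most 6 genes called between the colours, by smallest adjusted p over both times. Genes like each of the 8 are the 3 with the highest Pearson r over 16 libraries. A few pathway genes are not reported here, in text or plots, but are included in the counts of their lists.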

Additional observations from a re-analysis of the deposited data

Results flagged for a closer look

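Of the 32 sets of 4 libraries (8 genes in 4 groups), 1 held a library far from the others of its group. In Kaede-green cells at 72h, the first library had a log2 CPM of Nlrc4 of 0.34, and the nearest of the others had 1.17. The gap was 0.925 of the range of the group, above Dixon's critical value for 4 samples. Chance alone gives such a library in about 1 of 20 sets, and the value rests on 3 reads.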

How the results depend on the processing

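The few reads outside Rn45s in Kaede-green libraries limit low genes, Nlrc4 in particular, which a minimum of 10 counts in all libraries removed. Library size alone as the scaling moved the median log2 fold change of all genes over both times to 2.204 (0.06 with TMM), and the 6 genes that were called lay below that median.

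Over both times 6 of the 8 genes were called, 8 with library size only, 4 with no filter, 5 by DESeq2, and 0 with the Rn45s share as a covariate. Of all genes, 20.3% were called in the main fit. Library size only called 9318 higher and 10 lower of 9642, and no filter called 1231 and 923 of 21040. DESeq2 called 990 and 1257 of 12115, and the covariate fit 51 and 105 of 9642. At 24h the count of 3 became 7 with library size only and 1 (Il18) with the covariate. Of all 9642 genes, the first called 9049 higher and 5 lower, and the second 88 higher and 118 lower. At 72h the count of 3 became 5 with RLE factors, with at least 10 counts in every library, without Rn45s and with only the 2 groups compared, 7 with library size only and 0 with the covariate. Of all genes, RLE factors called 699 higher and 922 lower of 9642, and the filter of 10 counts 633 and 662 of 3084. Without Rn45s 740 and 915 of 8260 were called, and with only the 2 groups 871 and 1039 of 8965. Library size only called 8092 and 42, and the covariate 26 and 75, of 9642. Leaving out 1 library gave 5 to 6 over both times, 2 to 4 at 24h and 1 to 5 at 72h, where 1 was without the first Kaede-red library at 72h (Casp1 alone) and 5 without the fourth Kaede-green library at 24h. At 72h the first of these fits called 517 higher and 629 lower of 9750 genes, and the second 881 and 1029 of 9845. The same-numbered Kaede-red and Kaede-green libraries are not stated to share a tumour, and their deviations from the group means correlated at -0.018 to 0.15, over 0.1 in 1 of 8 pairs, so the numbers were not taken as pairs. With the replicate number as a block 6, 3 and 4 genes were called (both times together, 24h and 72h), with Pycard added at 72h (-0.82), and with blocks within time points Pycard was lost over both times (-0.52). Of all 9642 genes, the replicate block called 906 higher and 946 lower over both times, 275 and 417 at 24h and 758 and 815 at 72h. The counts of 0 for the times and the interaction stayed 0 in every alternative run.

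With library size only, log2 fold changes of Nlrp3, Aim2, Pycard, Casp1, Casp4 and Il18 turned to 1.55, 1.53, 1.52, 1.03, 1.53 and 0.75 over both times, to 1.58, 1.95, 1.87, 1.06, 1.60 and 0.57 at 24h and to 1.51, 1.10, 1.17, 0.99, 1.46 and 0.93 at 72h. For 72h against 24h it turned Casp1, Casp4 and Il18 to 0.49, 0.39 and 0.028 in Kaede-green cells and Casp4 to 0.25 in Kaede-red cells, and for the interaction Nlrp3, Casp1, Casp4 and Gsdmd to -0.077, -0.073, -0.14 and -0.19. The covariate turned Gsdmd to -0.016 over both times and -0.10 at 24h and Nlrc4 to -0.093 at 72h and, between the times in Kaede-red cells, to -0.047, and thinning turned Nlrc4 to -0.029 at 72h. None of these 5 values was called. Leaving out 1 library let uncalled values cross 0: Gsdmd at 24h (-0.020 to 0.27), between the times in Kaede-green cells Nlrp3 (-0.10 to 0.37), Pycard (-0.28 to 0.30) and Casp1 (-0.31 to 0.026), in Kaede-red cells Nlrc4 (-0.012 to 0.21), Casp1 (-0.036 to 0.21) and Il18 (-0.039 to 0.24), and the interaction of Nlrp3 (-0.0077 to 0.46). Except for the scaling, whose shift is given, the cause was not tested. Of 768 values with 1 library left out 729 kept direction and side of the threshold, as did 421 of 487 others.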

Other observations

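Pathway genes outside the 8 that were called only in narrower comparisons were named after their values were seen. At 24h Gbp2, an interferon-induced guanylate-binding protein, was lower in Kaede-red cells (log2 fold change -0.75, SE 0.23, adjusted p = 0.0460, edgeR), with means of 95.7 ± 18.8 and 57.0 ± 19.4 CPM in Kaede-green and Kaede-red libraries (SD, n = 4). At 72h its means were 89.4 ± 28.6 and 124.6 ± 16.5 CPM, without a call, and Irgm1, an interferon-induced GTPase, was higher in Kaede-red cells by 0.63 (adjusted p = 0.0222).

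Between the times in Kaede-red cells, Gbp2 (1.13, adjusted p = 0.00297), Gbp5 (1.11, adjusted p = 0.00517), Irf1 (0.62, adjusted p = 0.0275), Irf2 (0.71, adjusted p = 0.0330), Nfkb1 (0.79, adjusted p = 0.0175) and Irak3 (1.06, adjusted p = 0.0209) were higher at 72h. Ninj1, whose product ruptures the membrane of dying cells, was lower (-0.79, adjusted p = 0.0238), as was Il1rl1 (-1.29, adjusted p = 0.0168). None of the 8 genes named in this comparison was called between the times in Kaede-green cells or for the change of the colour difference with time, where Gbp2 had the lowest adjusted p (1.23, adjusted p = 0.0631).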
